A study of Mus musculus with 16 samples.

Results

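The 7 genes described here are Cyp1a1, Cyp1a2 and Cyp1b1, which encode the cytochrome P450 enzymes of family 1, and Ahr, Arnt, Ahrr and Tiparp, which encode the aryl hydrocarbon receptor (AhR), its DNA-binding partner and 2 of its repressors. They were chosen by symbol out of 24970 mouse genes in a liver RNA-seq count table, each represented by the RefSeq transcript with the highest mean count. All 7 were present in the table. Of these, 5 had enough counts to be tested, among 12913 genes tested in all. Cyp1b1 and Ahrr were too low and are given as counts.

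Livers of 16 mice were sequenced as poly(A)-selected messenger RNA, in 4 groups of 4 mice. The wild-type groups were C57BL/6 Ntac mice given vehicle, which was 2% DMSO in corn oil, or TCPOBOP at 3 mg/kg. The humanized groups were humanized PXR-CAR-CYP3A4/3A7 mice given the same vehicle or the same dose. TCPOBOP, a man-made ligand, activates the constitutive androstane receptor (CAR) of the mouse, and treatment lasted 48 h with 2 administrations 24 h apart. The table covers mouse transcripts only, so the human transgenes were not measured, and sex, age, batch and the genetic background of the humanized strain were not stated.

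AhR is a ligand-activated transcription factor that waits in the cytoplasm in a complex with HSP90 chaperones. Once a ligand such as a dioxin or a planar aromatic hydrocarbon binds, it moves to the nucleus, pairs with ARNT and binds a short DNA element whose core reads GCGTG, the xenobiotic response element. Cyp1a1, Cyp1a2 and Cyp1b1 are its classical target genes, and AHRR and TIPARP are induced targets that in turn damp the receptor. In liver, CYP1A2 is abundant in the hepatocytes around the central vein even without an inducer, whereas CYP1A1 is low until a ligand arrives. CAR activation is also known to raise Cyp1a1 and Cyp1a2 messenger RNA in mouse liver.

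Promoter sequences are shown first, since they are among the places where AhR and ARNT can meet these genes. RefSeq promoter entries on GRCm38.p6, each 300 bases from 250 before to 50 after the start, were matched for 6 of the 7 genes, all but Ahr. The 4 printed below were chosen to contrast the inducible enzyme gene, the abundant enzyme gene and both repressor genes, and the core is in capitals as GCGTG, or as CACGC where it lies on the other strand.

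Cyp1a1, chr9:57697363-57697662, + strand: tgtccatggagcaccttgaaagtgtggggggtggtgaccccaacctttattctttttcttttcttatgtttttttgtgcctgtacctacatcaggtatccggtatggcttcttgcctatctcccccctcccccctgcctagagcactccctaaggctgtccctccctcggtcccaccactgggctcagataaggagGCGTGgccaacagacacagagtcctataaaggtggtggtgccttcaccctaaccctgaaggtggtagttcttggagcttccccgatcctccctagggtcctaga
Cyp1a2, chr9:57683606-57683905, - strand: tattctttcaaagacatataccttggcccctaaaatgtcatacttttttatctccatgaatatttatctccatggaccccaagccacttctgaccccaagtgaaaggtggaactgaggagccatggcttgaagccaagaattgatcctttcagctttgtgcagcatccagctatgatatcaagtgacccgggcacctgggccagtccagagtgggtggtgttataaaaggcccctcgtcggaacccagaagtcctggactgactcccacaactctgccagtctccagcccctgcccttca
Ahrr, chr13:74292282-74292581, - strand: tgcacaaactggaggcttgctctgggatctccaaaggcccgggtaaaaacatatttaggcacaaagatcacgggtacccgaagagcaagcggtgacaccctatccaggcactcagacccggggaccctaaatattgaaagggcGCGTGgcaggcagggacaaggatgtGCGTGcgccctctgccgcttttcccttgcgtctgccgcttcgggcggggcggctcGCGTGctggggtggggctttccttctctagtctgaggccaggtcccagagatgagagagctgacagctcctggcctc
Tiparp, chr3:65528197-65528496, + strand: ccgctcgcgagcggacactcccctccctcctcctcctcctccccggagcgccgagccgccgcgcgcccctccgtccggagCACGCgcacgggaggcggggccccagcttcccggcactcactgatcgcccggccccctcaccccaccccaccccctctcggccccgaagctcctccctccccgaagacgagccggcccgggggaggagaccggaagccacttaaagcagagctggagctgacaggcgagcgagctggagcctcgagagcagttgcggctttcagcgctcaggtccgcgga

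Searched on both strands, GCGTG occurred 1 time in the Cyp1a1 window, with its first base at -54 from the start, and 0 times in the Cyp1a2 window. Ahrr held 3 matches, at -107, -82 and -27, and Tiparp held 1 at -170. The windows of Cyp1b1 and Arnt, not printed, held 1 match each, at -76 and -29. This core was present in 32.4% of all 32851 promoters of the same length, so its presence says little about a gene by itself. The longer TNGCGTG, which contains the core, was present in 5.07% of them and, among these 6 genes, only in Ahrr. These are matches of letters and show no binding. The known distal enhancers of Cyp1a1 lie upstream of this window, and the Cyp1a1 window is built around the start of another RefSeq transcript of the gene, NM_001136059. Sequence outside these windows was not searched for any of the 6 genes, Cyp1a2 included.

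Library totals ran from 30228724 to 37998473 counts in the wild-type TCPOBOP group. In the other groups they ran from 11827994 to 19483951 (wild-type vehicle), from 12612610 to 16904182 (humanized vehicle) and from 14019983 to 16755802 (humanized TCPOBOP). The greater depth therefore coincided with 1 group. Levels below are TMM-scaled CPM, counts scaled to the TMM-adjusted total of the tested genes with only the highest transcript of each. That total is smaller than the library totals above, which sum all transcripts. On this scale a count of 3 was worth 0.134 to 0.443 CPM. With vehicle, mouse Nr1i3, the CAR gene, averaged 100.3 ± 7.32 CPM in wild-type livers (SD, n = 4) against 2.20 ± 0.49 in humanized ones, and mouse Nr1i2, the PXR gene, averaged 136 ± 39.8 against 19.0 ± 1.25. The CAR target Cyp2b10 went from 48.2 ± 30.9 to 3200.2 ± 305 CPM with TCPOBOP in wild-type and from 17.4 ± 3.83 to 105 ± 64.4 CPM in humanized livers. The hepatocyte gene Alb was the tissue check and lay between 11809 and 68969 CPM in every library. In humanized TCPOBOP replicate 1 the 10 most abundant genes held 23.7% of the counts, against 11.8% to 21.1% in the other 15 libraries. Some results on that group are therefore also given without that replicate, and others only as ranges or numbers of fits with 1 library left out. In bulk liver, fewer cells of a type and less RNA per cell cannot be told apart.

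TCPOBOP was followed by higher Cyp1a1, Cyp1a2 and Ahr in wild-type livers and by higher Cyp1a1 and Cyp1a2 in humanized livers. By edgeR with a Benjamini-Hochberg adjusted p under 0.05, 3 of the 5 tested genes rose and 0 fell in wild-type livers, where 13.1% of all tested genes were called, 8.1% higher and 4.99% lower. In humanized livers 2 of 5 rose and 0 fell, against 2.52% of all tested genes called, 1.32% higher and 1.19% lower. The difference of the TCPOBOP effects between strains was called for 1 of 5, Cyp1a2, higher in wild-type livers, against 7.46% of all tested genes, 3.98% with a higher and 3.48% with a lower effect in wild-type livers. Humanized livers were lower than wild-type livers for 2 of 5 under vehicle, Cyp1a1 and Cyp1a2, against 16.1% of all tested genes called, 7.11% higher and 8.95% lower. Under TCPOBOP they were lower for 3 of 5, Cyp1a1, Cyp1a2 and Ahr, against 24.6% of all tested genes called, 11.8% higher and 12.8% lower. The median log2 difference over all tested genes lay between -0.02 and 0.02 in these 5 comparisons.

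**Figure D1:**
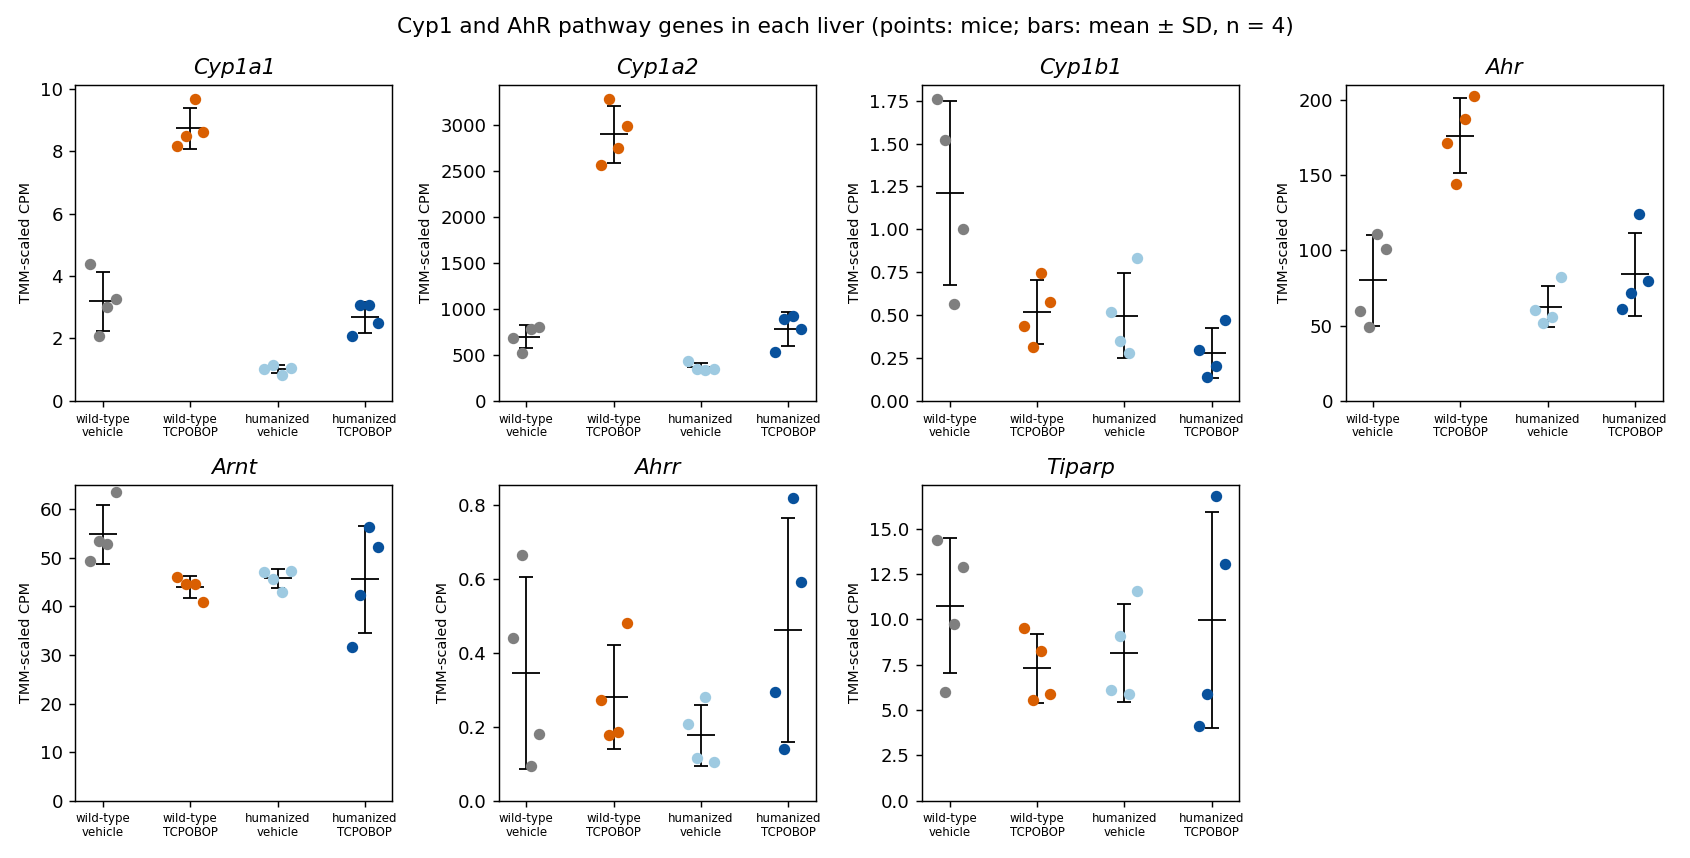
Level of each of the 7 genes in every library, in TMM-scaled CPM, with 4 points per group and a bar at the group mean. Cyp1a1 and Cyp1a2 were higher with TCPOBOP in both strains without overlap of the groups and Ahr in wild-type livers, where groups did not overlap for 20.9% of all tested genes (9.95% in humanized livers), and the groups of Tiparp overlapped throughout.

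Cyp1a2 encodes the main hepatic enzyme of the family, which oxidises caffeine and aromatic amines. Its transcript NM_009993 belongs to a gene at chr9 57676937 to 57683655 on the minus strand of mm10. Wild-type vehicle livers had 689, 521, 781 and 801 CPM (replicates 1 to 4), and wild-type TCPOBOP livers had 2570.4, 3288, 2749 and 2991 CPM. Every TCPOBOP liver lay above every vehicle liver. The wild-type groups did not overlap for 20.9% of all tested genes, so the absence of overlap is common there. The mean went from 698 ± 128 to 2899.7 ± 311 CPM, a log2 difference of 2.05 ± 0.21 (SE) or 4.15-fold (edgeR, adjusted p 2.61e-06).

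Humanized vehicle livers had 429, 346, 333 and 345 CPM of Cyp1a2, and humanized TCPOBOP livers had 527, 893, 925 and 779 CPM. These groups did not overlap either, as in 9.95% of all tested genes, and TCPOBOP replicate 1 stayed closest to the vehicle range. The mean went from 364 ± 44.1 to 781 ± 181 CPM, a log2 difference of 1.10 ± 0.20 or 2.15-fold (edgeR, adjusted p 0.0086), and 1.27 without that replicate (adjusted p 0.00212). The rise was larger in wild-type than in humanized livers by 0.95 ± 0.28 on the log2 scale (edgeR interaction, adjusted p 0.0461). That call is close to the threshold: with 1 library left out at a time the difference stayed between 0.77 and 1.04, and the adjusted p between 0.0434 and 0.103, under 0.05 in 2 of the 16 fits, those without humanized TCPOBOP replicate 1 or 3.

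Cyp1a2 also differed between strains before treatment. Under vehicle, humanized livers were 1.92-fold lower, or -0.94 ± 0.20 on the log2 scale (edgeR, adjusted p 0.0086). All 4 humanized vehicle livers were below all 4 wild-type vehicle livers, and 26.4% of all tested genes had no overlap there. With TCPOBOP the gap was 3.71-fold, or -1.89 ± 0.20 (log2, adjusted p 4.57e-06), so the humanized livers reached with TCPOBOP about the range that wild-type livers held under vehicle, 527 to 925 against 521 to 801 CPM. By mean level among 24970 genes, Cyp1a2 ranked 187 in wild-type vehicle, 36 in wild-type TCPOBOP, 367 in humanized vehicle and 178 in humanized TCPOBOP livers.

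Cyp1a1 encodes the enzyme most used as a marker of AhR activity. Its transcript NM_009992 belongs to a gene at chr9 57687928 to 57703824 on the plus strand, next to Cyp1a2 and pointing away from it. It was a low transcript in all livers. Wild-type livers had 4.40, 2.09, 3.00 and 3.27 CPM with vehicle, and 8.16, 8.50, 9.68 and 8.62 CPM with TCPOBOP. Every treated liver was above every vehicle liver, as for Cyp1a2. Its mean went from 3.19 ± 0.951 to 8.74 ± 0.659 CPM, a log2 difference of 1.47 ± 0.22 or 2.76-fold (edgeR, adjusted p 0.00017).

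In humanized livers Cyp1a1 was at 1.04, 1.16, 0.841 and 1.04 CPM with vehicle, from 6 to 10 counts a library, and at 2.07, 3.07, 3.07 and 2.49 CPM with TCPOBOP, from 14 to 30 counts. Again no TCPOBOP liver fell within the vehicle range, which held for 9.95% of all tested genes. The mean went from 1.02 ± 0.134 to 2.67 ± 0.489 CPM, a log2 difference of 1.38 ± 0.27 or 2.60-fold (edgeR, adjusted p 0.0133). Without humanized vehicle replicate 4 the difference was 1.39 but the adjusted p was 0.0555. The log2 effects in the strains differed by 0.09 ± 0.38 (edgeR interaction, adjusted p 0.936), an SE wide enough that a moderate difference could not have been seen.

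Cyp1a1 was lower in humanized livers in both treatments. Under vehicle the gap was 3.05-fold, or -1.61 ± 0.27 on the log2 scale (edgeR, adjusted p 0.00214), and with TCPOBOP 3.25-fold lower, at -1.70 ± 0.23 on the log2 scale (adjusted p 4.26e-05). The strain groups did not overlap in either treatment, as in 26.4% of all tested genes under vehicle and 27.4% under TCPOBOP.

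**Figure D2:**
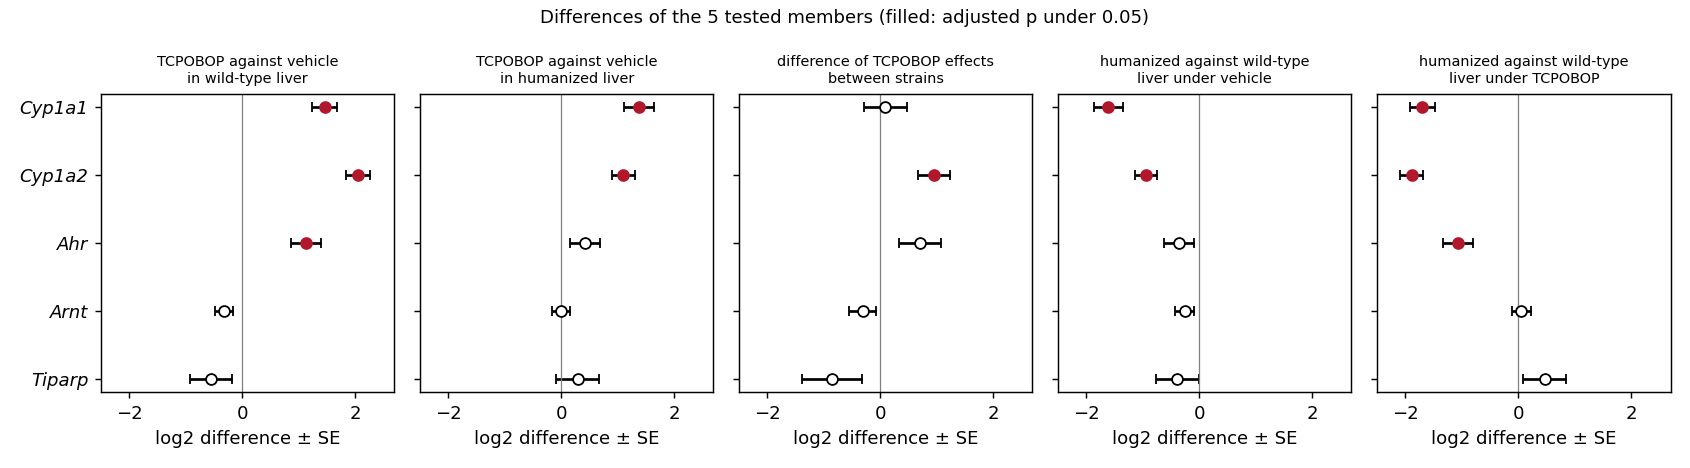
Log2 difference ± SE of the 5 tested genes in the 5 comparisons of the edgeR fit, with filled points for an adjusted p under 0.05. Cyp1a2 and Cyp1a1 stand to the right of 0 with TCPOBOP in both strains, 2.05 and 1.47 in wild-type and 1.10 and 1.38 in humanized livers, while Arnt and Tiparp are unfilled throughout.

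As a share of the Cyp1a2 count, the Cyp1a1 count was 0.639, 0.401, 0.385 and 0.409% in wild-type vehicle livers and 0.317, 0.259, 0.352 and 0.288% in wild-type TCPOBOP livers. The treated livers were thus all below the vehicle livers. Humanized vehicle livers had 0.242, 0.336, 0.252 and 0.302%, and humanized TCPOBOP livers had 0.392, 0.344, 0.332 and 0.319%, and these ranges overlapped. The ratio was examined after its values were seen, in 4 two-sided exact permutation tests adjusted together, each with 70 arrangements and a smallest possible p of 0.0286. The share differed by -0.15 points with TCPOBOP in wild-type livers (exact permutation p 0.0286, adjusted 0.0571) and by -0.18 points between humanized and wild-type vehicle livers (exact permutation p 0.0286, adjusted 0.0571). The other comparisons gave 0.06 points for TCPOBOP in humanized livers (exact permutation p 0.0857, adjusted 0.114) and 0.04 points between strains under TCPOBOP (exact permutation p 0.171, adjusted 0.171). None passed 0.05 after adjustment. The transcripts share 94 words of 50 bases, which are 3.55% of the words of Cyp1a1 and 4.97% of those of Cyp1a2, and whether Cyp1a2 reads were counted for the much lower Cyp1a1 was not tested. Cyp1b1 shares 0 such words with either.

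**Figure D3:**
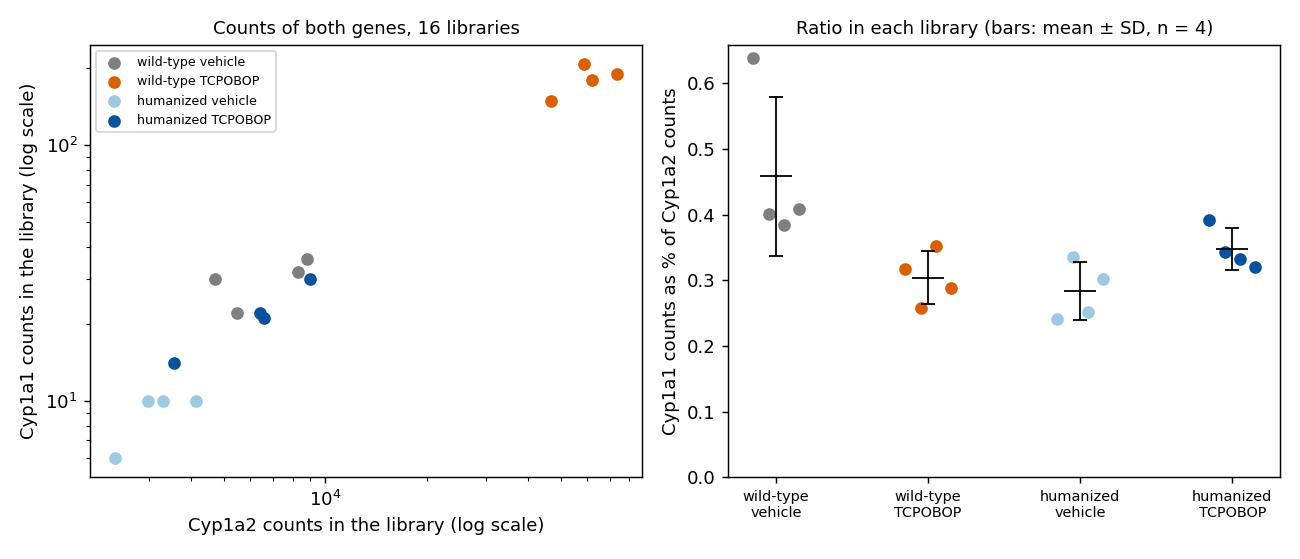
Cyp1a1 counts as a percent of Cyp1a2 counts in every library, with 4 points per group and a bar at the mean. The means are 0.458% in wild-type vehicle, 0.304% in wild-type TCPOBOP, 0.283% in humanized vehicle and 0.347% in humanized TCPOBOP livers.

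Cyp1b1, which encodes an enzyme of steroid and hydrocarbon oxidation found mostly outside hepatocytes, was near the floor of the data. Its transcript NM_009994 (gene at chr17 79706940 to 79715061, minus strand) had 12, 16, 6 and 11 counts in wild-type vehicle, 8, 7, 16 and 12 in wild-type TCPOBOP, 5, 3, 2 and 8 in humanized vehicle and 2, 1, 2 and 4 in humanized TCPOBOP livers. The wild-type TCPOBOP libraries were the deepest, so the same counts stand for a lower level there. Group means were 1.21 ± 0.536, 0.519 ± 0.187, 0.496 ± 0.247 and 0.278 ± 0.145 CPM in that order. It did not pass the filter on low counts. With all genes kept, edgeR gave a log2 difference of -1.15 with TCPOBOP in wild-type livers (adjusted p 0.121) and of -1.23 between strains under vehicle (adjusted p 0.108), with unadjusted p of 0.0152 and 0.019. With TCPOBOP in humanized livers the same fit gave -0.80 (edgeR, adjusted p 0.584). The mean of Cyp1b1 was thus not higher with TCPOBOP in either strain. A change of its level was not detectable at this depth, so no contrast with Cyp1a1 and Cyp1a2 was shown.

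Stellate cells are among the cells where Cyp1b1 is usually found. The summed level of 10 of their markers was 337 to 433 CPM with vehicle and 264 to 353 CPM with TCPOBOP in wild-type livers, and 267 to 287 and 94.0 to 268 CPM in humanized livers. Of the 10, 0 rose and 0 fell with TCPOBOP in wild-type livers by edgeR (2 at an unadjusted p under 0.05, 1 fall by DESeq2), 2 fell in humanized livers (4 by DESeq2), and 2 were lower in humanized vehicle livers. With 1 library left out at a time these counts were 0 or 1, 0 to 3 and 0 to 3. The humanized count was 0 without humanized vehicle replicate 4, and the vehicle count was 0 without humanized vehicle replicate 1, 3 or 4 or wild-type vehicle replicate 1. Of all tested genes 4.99% fell in wild-type and 1.19% in humanized livers, and 8.95% were lower in humanized vehicle livers. Under TCPOBOP 4 of the 10 were lower in humanized than in wild-type livers, against 12.8% of all tested genes. That count was 1 to 5 with 1 library left out. None of the 10 was at 0 in all libraries of a group. Their part in the Cyp1b1 values was not tested.

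Ahr, the receptor gene (NM_013464, chr12 35497979 to 35534989, minus strand), stood at 60.0, 49.1, 111 and 101 CPM in the wild-type vehicle group and at 171, 144, 187 and 202 CPM in the wild-type TCPOBOP group. Vehicle replicates 3 and 4 were well above replicates 1 and 2, yet all vehicle livers stayed under all TCPOBOP livers, where 20.9% of all tested genes had no overlap. The mean went from 80.2 ± 30.2 to 176 ± 25.0 CPM, a log2 difference of 1.13 ± 0.26 or 2.19-fold (edgeR, adjusted p 0.00685).

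Humanized livers had 60.6, 51.4, 55.8 and 82.5 CPM of Ahr with vehicle and 60.8, 71.4, 124 and 79.9 CPM with TCPOBOP. Only TCPOBOP replicate 3 exceeded the highest vehicle liver. The log2 difference was 0.43 ± 0.26 (edgeR, adjusted p 0.426), and the effects in the strains differed by 0.71 ± 0.37 (edgeR interaction, adjusted p 0.288), so a smaller response of Ahr in the humanized strain was not shown. Strain levels under vehicle differed by -0.36 ± 0.26 (adjusted p 0.34). With TCPOBOP, humanized livers were 2.09-fold lower, or -1.07 ± 0.26 on the log2 scale (edgeR, adjusted p 0.00714).

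Arnt, the partner gene (NM_001037737, chr3 95434367 to 95497240, plus strand), had a narrow range. Wild-type livers had 49.4, 53.5, 52.9 and 63.5 CPM with vehicle and 46.0, 44.6, 44.6 and 40.8 CPM with TCPOBOP. These groups did not overlap, which held for 20.9% of all tested genes, but the log2 difference of -0.32 ± 0.16 did not pass the test (edgeR, adjusted p 0.242). Humanized livers had 47.2, 45.6, 43.0 and 47.4 CPM with vehicle and 31.6, 42.4, 56.3 and 52.2 CPM with TCPOBOP. The humanized TCPOBOP livers spread to both sides of the vehicle livers, and the means were 45.8 ± 2.01 and 45.6 ± 11.0 CPM (adjusted p 0.997). Between strains the log2 difference was -0.26 ± 0.16 under vehicle (adjusted p 0.267) and 0.05 ± 0.16 under TCPOBOP (adjusted p 0.837).

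Of the repressor genes, Ahrr, whose product competes with AhR for ARNT, was barely detected. Its transcript NM_001317351 (gene at chr13 74211118 to 74292331, minus strand) had 3, 7, 1 and 2 counts in wild-type vehicle, 5, 4, 4 and 10 in wild-type TCPOBOP, 2, 1, 2 and 1 in humanized vehicle and 2, 1, 8 and 5 in humanized TCPOBOP livers. Group means of 0.345 ± 0.259, 0.280 ± 0.141, 0.177 ± 0.083 and 0.462 ± 0.304 CPM all lay within the range that 3 counts are worth, or just above it. It was not tested, and with all genes kept no comparison passed (edgeR, adjusted p 0.38 to 0.921). No statement on its direction can be made at this depth.

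Tiparp, which encodes an ADP-ribosyltransferase that modifies AhR (NM_178892, chr3 65528447 to 65555518, plus strand), varied more within groups than between them. Wild-type vehicle livers had 14.4, 5.99, 9.76 and 12.9 CPM, and wild-type TCPOBOP livers had 9.53, 5.55, 8.23 and 5.88 CPM. Humanized livers had 6.12, 9.08, 5.89 and 11.6 CPM with vehicle and 4.13, 5.86, 16.8 and 13.04 CPM with TCPOBOP. All 4 groups overlapped, with the widest spread in humanized TCPOBOP livers, where replicates 3 and 4 were high and replicates 1 and 2 low. No comparison passed (edgeR, adjusted p 0.381 to 0.742), and the log2 difference with TCPOBOP was -0.56 ± 0.37 in wild-type and 0.30 ± 0.38 in humanized livers. In mm10 the gene overlaps the long noncoding RNA 4931440P22Rik, and whether counting used strand was not stated.

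Per kilobase of transcript, a scale on which genes can be ordered, Cyp1a2 was the highest of the 7 in every group, at 360.2, 1495, 187 and 403 CPM per kb in wild-type vehicle, wild-type TCPOBOP, humanized vehicle and humanized TCPOBOP livers. Arnt at 20.3, 16.3, 17.0 and 16.9 and Ahr at 14.4, 31.7, 11.3 and 15.1 CPM per kb followed. The order of Arnt and Ahr rests on the Arnt transcript, since its other RefSeq transcript NM_009709, of 4.325 kb in place of 2.699 kb, gives 12.7, 10.2, 10.6 and 10.5 CPM per kb for Arnt. With either length, all 4 wild-type TCPOBOP livers had more Ahr than Arnt per kb. In the other groups the number of livers with more Ahr went from 1 to 2 in wild-type vehicle, from 0 to 3 in humanized vehicle and from 1 to 4 in humanized TCPOBOP livers when the longer transcript was used. Tiparp came next, at 2.57, 1.74, 1.95 and 2.38 CPM per kb, except in wild-type TCPOBOP livers, where Cyp1a1 was higher in every library. Cyp1a1 was at 1.18, 3.24, 0.379 and 0.992 CPM per kb, which means that its rise with TCPOBOP left it far below Cyp1a2 on the same scale. Cyp1b1 at 0.236, 0.101, 0.097 and 0.054 and Ahrr at 0.143, 0.116, 0.073 and 0.191 CPM per kb were lowest, and their libraries overlapped in every group. The Ahr length is that of NM_001314027, since none was found for NM_013464.

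Across the 16 libraries, the genes whose log2 level was most like that of a member were listed as a description, with Pearson r over all libraries, group differences and depth included. Cyp1a2 was most like Cyp2c50 (r = 0.970), Ces2c (0.968) and Smpd3 (0.965). These differ in size, since Cyp2c50, a P450 gene of another family, averaged 537 CPM with vehicle and 3477 CPM with TCPOBOP in wild-type livers, against 135 and 360.2 CPM in humanized livers. Cyp1a1 was most like E130310I04Rik (r = 0.968), Mfsd4b1 (0.967) and the collagen gene Col15a1 (0.961). Ahr was most like G3bp2 (r = 0.939), Mctp2 (0.933) and Cyp2c29 (0.933), Arnt like Tent5c (0.943), Mon2 (0.912) and Hbp1 (0.901), and Tiparp like Rbl2 (0.906), Aff4 (0.900) and Man2a1 (0.894).

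Several other known AhR targets rose with TCPOBOP in wild-type livers, and 0 were called in humanized livers. The list held 17 genes, of which 14 had enough counts to be tested. By edgeR 8 of 14 rose and 0 fell with TCPOBOP in wild-type livers (2 falls by DESeq2). Of all tested genes 8.1% were called higher and 4.99% lower there. The median log2 difference of the 14 was 0.88 against -0.02 over all tested genes. In humanized livers 0 rose and 0 fell (4 at an unadjusted p under 0.05, 1 fall by DESeq2), with a median of -0.02 against 0.02. Only 2.52% of all tested genes were called there, so 0 of 14 is close to that share. The difference of the effects was called for 4 of 14, all larger in wild-type livers, against 3.98% of all tested genes in that direction. Leaving out 1 library at a time gave 6 to 8 rises in wild-type livers and 4 or 5 differences between effects, and without humanized TCPOBOP replicate 1 there were 2 falls in humanized livers. Several of these genes are known to answer CAR or NRF2 as well as AhR.

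Ugdh, which makes UDP-glucuronate for conjugation, went from 202 ± 29.2 to 522 ± 90.1 CPM in wild-type livers (edgeR, adjusted p 3.97e-05) and from 253 ± 42.2 to 275 ± 28.6 CPM in humanized livers (adjusted p 0.786). The effects differed by 1.25 ± 0.25 on the log2 scale (adjusted p 0.00455). Cyp2a5, the mouse coumarin hydroxylase, rose by 2.89 ± 0.33 on the log2 scale in wild-type livers (adjusted p 1.01e-05) and differed by 0.82 ± 0.31 in humanized livers (adjusted p 0.167), with an interaction of 2.07 ± 0.44 (adjusted p 0.00706). Gsta1, an alpha-class glutathione transferase with close paralogs, averaged 0.139 ± 0.175 CPM with vehicle, at or below the worth of 3 counts, and 74.2 ± 15.1 CPM with TCPOBOP in wild-type livers (adjusted p 8.26e-09). In humanized livers Gsta1 was at 1.61 ± 1.07 and 0.449 ± 0.333 CPM (adjusted p 0.0883). Slc7a5, an amino acid transporter gene, rose by 1.04 ± 0.28 on the log2 scale in wild-type livers (adjusted p 0.0163), a call lost at 0.0594, 0.0536 and 0.0522 without wild-type vehicle replicate 1 or 4 or TCPOBOP replicate 4. Its level was lower in humanized livers under TCPOBOP, at a log2 difference of -2.30 ± 0.30 (adjusted p 3.47e-05).

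Nqo1, a quinone reductase gene and a textbook AhR target, is named here because its values stood out. Wild-type livers averaged 4.81 ± 1.81 CPM with vehicle and 14.9 ± 5.85 CPM with TCPOBOP, a log2 difference of 1.62 ± 0.28 (edgeR, adjusted p 0.000524). In humanized livers it was at 13.3 ± 1.87 and 7.32 ± 1.17 CPM, lower with TCPOBOP without overlap, as in 9.95% of all tested genes, at -0.86 ± 0.27 (adjusted p 0.105). Its effects differed by 2.48 ± 0.39 between strains (adjusted p 0.000778), and Nqo1 was higher in humanized than in wild-type vehicle livers by 1.46 ± 0.28 (adjusted p 0.00551). Cyp1a1 and Cyp1a2 had the opposite strain difference under vehicle. The 14 tested genes of the target list went both ways there, 4 higher and 2 lower in humanized livers, against 7.11% and 8.95% of all tested genes. Under TCPOBOP 1 was higher and 8 lower, against 11.8% and 12.8%. With 1 library left out the vehicle counts were 2 to 5 and 1 or 2, and the TCPOBOP counts 1 and 5 to 8.

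**Figure D4:**
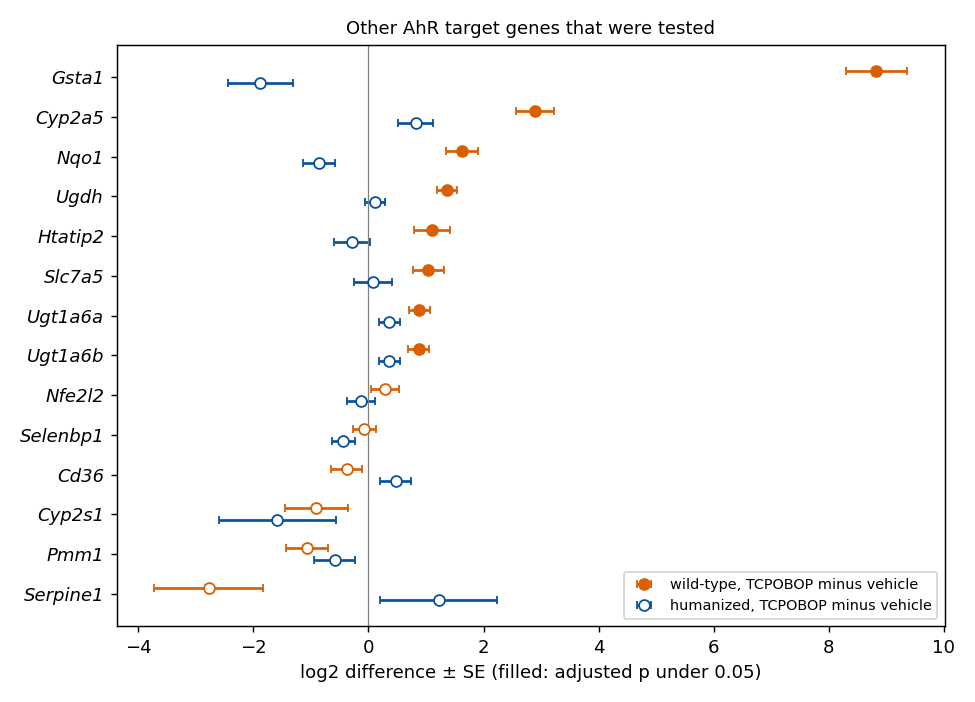
Log2 difference ± SE with TCPOBOP for the 14 tested genes of the AhR target list in wild-type and in humanized livers, with filled points for an adjusted p under 0.05. In wild-type livers 8 are filled and to the right of 0, and in humanized livers 0 are filled. Of all tested genes 8.1% were called higher in wild-type livers and 2.52% were called in humanized livers.

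Of 4 genes whose products pass electrons to microsomal P450s, 2 rose in wild-type livers, the cytochrome b5 gene Cyb5a by 1.17 ± 0.19 on the log2 scale (edgeR, adjusted p 0.000363) and Por, the P450 reductase gene, by 1.26 ± 0.31 (adjusted p 0.0105). Of all tested genes 8.1% rose in wild-type livers. In humanized livers 0 of the 4 passed (0 by DESeq2, and 0 with an unadjusted p under 0.05), against 2.52% of all tested genes called. Under TCPOBOP Cyb5a and Por were lower in humanized livers, at log2 differences of -0.74 ± 0.19 (adjusted p 0.00893) and -1.37 ± 0.31 (adjusted p 0.00429), as were 12.8% of all tested genes. The difference of effects was 0.87 ± 0.27 for Cyb5a (adjusted p 0.0565) and 0.97 ± 0.44 for Por (adjusted p 0.205).

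The chaperones and coregulators of AhR gave few calls. Of 11, 2 rose in wild-type livers, the chaperone genes Hsp90ab1 (log2 difference 0.79, adjusted p 0.0334) and Hsp90aa1 (1.34, adjusted p 0.0387), and 0 passed in humanized livers (2 at an unadjusted p under 0.05, 0 by DESeq2). Of all tested genes 8.1% rose in wild-type livers and 2.52% were called in humanized livers. With 1 library left out at a time the wild-type count was 0 to 2, and without humanized TCPOBOP replicate 1 the humanized count was 2. Under vehicle the chaperone gene Ptges3 was higher in humanized livers (0.97, adjusted p 0.034), and the coactivator gene Ncoa2 (-0.83, adjusted p 0.0231) and 1 other were lower, with 0 to 2 and 0 to 3 calls when 1 library was left out. The shares of all tested genes were 7.11% higher and 8.95% lower.

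Among other genes of the bHLH-PAS family, to which AHR, ARNT and AHRR belong, 5 of 10 were tested. In wild-type livers 0 passed with TCPOBOP (0 at an unadjusted p under 0.05, 0 by DESeq2), and in humanized livers 1 fell (2 by DESeq2), the clock gene Arntl, by -1.79 on the log2 scale (adjusted p 0.0269), a call kept in 10 of the 16 fits without 1 library. Of all tested genes 13.1% were called in wild-type livers and 1.19% fell in humanized livers. The clock gene Npas2 was higher in humanized than in wild-type vehicle livers by 3.09 on the log2 scale (adjusted p 0.0107), as was Arntl by 1.62 (adjusted p 0.0152), and the hypoxia factor gene Epas1 was lower, at -0.74 (adjusted p 0.0437). In that comparison 7.11% of all tested genes were higher and 8.95% lower. The calls of Npas2 and Arntl under vehicle were kept in all 16 fits without 1 library, and that of Epas1 in 6. The time of day of collection was not stated, and its part in these values was not tested.

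Enzymes of tryptophan breakdown, a source of kynurenine and other AhR ligands, also gave few calls. Of 10 tested, 1 gene was called with TCPOBOP in each strain, against 13.1% of all tested genes in wild-type and 2.52% in humanized livers. Afmid, the kynurenine formamidase gene, rose in wild-type livers (log2 difference 0.71, adjusted p 0.0157) and fell in humanized livers (-0.72, adjusted p 0.0484), calls kept in 13 and in 2 of the 16 fits that left out a library. The difference between its effects, 1.43 (adjusted p 0.0027), was called in all 16. The effect on Kmo, the kynurenine monooxygenase gene, differed by -1.11 on the log2 scale, wild-type minus humanized (adjusted p 0.0253, called in 10 of the 16 fits). Kmo was higher in humanized livers under TCPOBOP by 0.95 (adjusted p 0.00291, called in all 16), as was Haao by 0.82 (adjusted p 0.0265, called in 11). Ido2 was lower in humanized vehicle livers (-0.81, adjusted p 0.0158, called in 14). Of all tested genes 7.46% were called for the difference of effects. In humanized livers 11.8% were higher under TCPOBOP and 8.95% lower under vehicle. Tdo2, which starts the pathway in hepatocytes, averaged 1163 ± 421 CPM with vehicle and 1023 ± 155 CPM with TCPOBOP in wild-type livers (edgeR, adjusted p 0.746).

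Some zonation markers were called with TCPOBOP in wild-type livers, and 0 in humanized livers. Cyp1a2 is pericentral, and of 11 other pericentral markers 5 fell and 2 rose with TCPOBOP in wild-type livers, while 0 passed in humanized livers (5 at an unadjusted p under 0.05, 4 rises by DESeq2). Of all tested genes 4.99% fell and 8.1% rose in wild-type livers, and 2.52% were called in humanized livers. With 1 library left out at a time there were 3 to 6 falls and 1 to 3 rises in wild-type livers and 0 to 4 rises in humanized livers, with 4 without wild-type vehicle replicate 2. Their summed level was 5198 to 9606 CPM with vehicle and 4679 to 6452 CPM with TCPOBOP in wild-type livers, against 7538 to 8380.0 and 9463 to 11918 CPM in humanized livers. Of 8 periportal markers 6 fell and 0 rose with TCPOBOP in wild-type livers, with sums of 7228 to 12034 and 1867 to 4293 CPM. In humanized livers 0 of these 8 passed, but 5 had an unadjusted p under 0.05 by edgeR. Their median log2 difference there was -0.59, with sums of 7713 to 10751 CPM with vehicle and 6777 to 11008 CPM with TCPOBOP. With 1 library left out there were 5 to 7 falls in wild-type livers and 0 or 1 rise in humanized livers. Between strains under TCPOBOP, 7 pericentral markers were higher and 1 lower in humanized livers, and 4 periportal markers were higher and 0 lower. Of all tested genes 11.8% were higher and 12.8% lower. With 1 library left out, 6 or 7 pericentral and 3 to 5 periportal markers were higher, and 0 or 1 pericentral marker was lower. No marker of either list was at 0 in all libraries of a group, and the part of zonation in the Cyp1a values was not tested.

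Some markers of non-hepatocytes were lower in humanized vehicle livers. Of 8 Kupffer cell markers 7 were lower in humanized vehicle livers, with sums of 189 to 347 CPM against 448 to 979 CPM in wild-type vehicle livers. Of 8 sinusoidal endothelial markers 3 were lower there, with sums of 189 to 225 against 345 to 639 CPM. The share over all tested genes was 8.95%. Under TCPOBOP 0 of 8 Kupffer and 3 of 8 endothelial markers were lower in humanized livers, against 12.8% of all tested genes. With 1 library left out, these counts under TCPOBOP were 0 to 5 and 1 to 7. With TCPOBOP against vehicle, 0 of 8 in either list passed in either strain (at an unadjusted p under 0.05, 1 and 2 Kupffer and 0 and 1 endothelial markers in wild-type and humanized livers, and 0 by DESeq2). Of all tested genes 13.1% were called in wild-type and 2.52% in humanized livers. With 1 library left out at a time, 1 to 7 endothelial markers were lower in humanized vehicle livers, 1 without humanized vehicle replicate 1, 3 or 4, 5 to 7 without any 1 of the humanized TCPOBOP libraries, and 7 by DESeq2. The Kupffer count was 3 to 7, with 3 without humanized vehicle replicate 3 and 4 without replicate 4. Without humanized TCPOBOP replicate 1, 1 Kupffer marker rose with TCPOBOP in humanized livers. No marker of these lists was at 0 in all libraries of a group. Of the smaller lists, 2 of 7 general hepatocyte markers fell with TCPOBOP in wild-type and 0 in humanized livers (0 at an unadjusted p under 0.05, 0 by DESeq2). The shares of all tested genes that fell were 4.99% and 1.19%. The wild-type count was 1 in 8 of the 16 fits without 1 library. Of 5 cholangiocyte markers 1 was higher in humanized livers under vehicle (0 without humanized vehicle replicate 3 or 4) and 1 under TCPOBOP. The shares of all tested genes that were higher were 7.11% and 11.8%. Of 2 tested neutrophil markers 0 passed in any comparison by edgeR (2 between strains under vehicle and 1 with TCPOBOP in humanized livers by DESeq2, as many as at an unadjusted p under 0.05). The part of these cells in the strain differences of Cyp1a1 and Cyp1a2 was not tested.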

How the data were processed

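The authors deposited whole-number counts of 40458 RefSeq transcripts in 16 liver libraries. Per the labels' protocols, RNA was extracted with Trizol, poly(A)-selected and prepared with a NEBNext kit, and per the submitters' processing notes STAR, DESeq2 and mm10 were used. Versions, counting program, strandedness and the handling of multiply mapped reads were not stated. Even numbers made up 74.9% of counts from 20 upward, and halving with rounding to even would give 75%, so the deposited counts may be halved, and depth and floors are approximate. Symbols were assigned to 40219 transcripts through RefSeq and 125 through GENCODE, and 114 transcripts, with 0.227% to 0.582% of the counts, stayed unmatched.

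The highest transcript stood for each gene. One model with 4 group means over all 16 libraries was fitted in edgeR 4.0.16 (limma 3.58.1, R 4.3.3) with filterByExpr, TMM and quasi-likelihood F tests, two-sided, with Benjamini-Hochberg adjustment over the 12913 tested genes of a comparison and a threshold of 0.05. P-values rest on the spread between libraries within groups of 4, with 1 estimate of that spread shared by all 4 groups. Simulated data with 200 changed genes were tested in the same way: a 2-fold change was found for 35.5% of these genes in the wild-type and 30.5% in the humanized comparison, and a 4-fold change for 94.5% and 88.5%. Of the calls, 6.58% and 0% were false at 2-fold, in the same order, and 3.57% and 2.75% at 4-fold. Levels have SD (n = 4) and differences SE. Alternatives were other size factors, no filter, DESeq2 1.42.0, summed transcripts, only the compared groups, libraries thinned to the smallest, a replicate block and each library left out. List counts under left-out libraries and by DESeq2, and the other Arnt length, were added after the data were seen.

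The 7 genes and all lists were chosen with earlier results of these data known. From each list the text names up to 4 called genes with the smallest p, for the pathway lists only. Named outside this rule were Nqo1, Tdo2, the targeted genes, Cyp2b10, Alb and the genes of like pattern. Genes that share exons, such as Ugt1a6a and Ugt1a6b, are uncertain as single genes.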

Additional observations from a re-analysis of the deposited data

Results flagged for a closer look

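Cyp1a2 in humanized vehicle livers had 1 library far from the others. Replicate 1 was at 429 CPM and the other 3 lay between 333 and 346 CPM. The gap to the nearest library was 0.866 of the group's whole range, above the 95% critical value of Dixon's test for 4 samples. This test was made in 28 groups of libraries, 7 genes in 4 groups, and chance alone sets off about 1 in 20. Without that library the log2 difference with TCPOBOP in humanized livers was 1.19 (edgeR, adjusted p 0.0195).

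The effect of TCPOBOP on Cyp1a2 differed between the strains by 0.95 on the log2 scale, wild-type minus humanized (edgeR interaction, adjusted p 0.0461). All 4 TCPOBOP livers were above all 4 vehicle livers in each strain. The call of the difference was kept in 3 of 7 alternatives and in 2 of 16 fits without 1 library.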

How the results depend on the processing

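The 25 tested results on the 5 genes kept direction and side of the threshold in every alternative for 23 and in every fit without 1 library for 19, and 9 of the 11 called results did so in both. The interaction of Cyp1a2 passed only under some settings. It was 0.89 with RLE size factors (adjusted p 0.0629), 0.94 with no filter (0.0833), 0.92 with thinned libraries (0.0605) and 0.97 with a replicate block (0.0629), and 0.77 to 1.04 with 1 library left out. Replicate numbers were not taken to pair the mice. Deviations of same-numbered libraries correlated between -0.24 and 0.58, from 0.0998 to 0.58 in the 4 pairs of wild-type vehicle and TCPOBOP libraries, and 5 of 16 libraries correlated best with their own number. With the replicate block the calls of Hsp90ab1 in wild-type (adjusted p 0.0554), Arntl in humanized (0.05004) and Epas1 under vehicle (0.0552) were among those also lost. The log2 difference of Arnt with TCPOBOP in humanized livers lay around 0, at -0.00 in the fit reported, 0.034 with RLE size factors, 0.032 with no filter, 0.035 by DESeq2, 0.0070 with summed transcripts, 0.015 with the compared groups alone, 0.0026 thinned and -0.12 to 0.16 with 1 library left out. With 1 library left out, other values near 0 also changed sign: Tiparp in humanized livers at -0.079 to 0.57, the Cyp1a1 interaction at -0.086 to 0.23 and Arnt between strains under TCPOBOP at -0.065 to 0.21. Cyp1a1 in humanized livers stayed at 1.30 to 1.4998, and its call was lost only without humanized vehicle replicate 4. The cause of these changes was not tested.

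Counts of called genes moved most. In humanized livers 325 genes were called, against 765 by DESeq2, 182 with the compared groups alone, 209 with a replicate block and 74 (without humanized vehicle replicate 4) to 960 (without humanized TCPOBOP replicate 1) with 1 library left out. For the interaction the count was 963, 1481 by DESeq2 and 575 to 1782 with 1 library left out. Those ranges were 1068 to 2190 in wild-type livers, 621 to 3425 between strains under vehicle and 1963 to 4163 under TCPOBOP. Fits with a library removed have fewer samples. With transcripts summed, library totals grow, and the CPM levels became 400.1, 1669.6, 207 and 448 for Cyp1a2 in wild-type vehicle, wild-type TCPOBOP, humanized vehicle and humanized TCPOBOP livers, 9.93 and 1.16 for Cyp1a1 in wild-type TCPOBOP and humanized vehicle, 0.299 for Cyp1b1 in wild-type TCPOBOP, 62.8, 50.6 and 52.2 for Arnt and 6.17, 4.20 and 4.66 for Tiparp in the first 3 groups. Stability was also counted for 95 called results on a selection of the listed genes. At most 4 genes per list were picked, by lowest p, with Nqo1, Htatip2 and Ugt1a6a added. Of these 95 results, 81 kept their call in every alternative and 61 in every fit without 1 library, with 0 reversals. Calls on the other listed genes were not counted, so these numbers do not describe the lists as a whole. Depth limits Cyp1b1 and Ahrr, at 1 to 16 counts a library.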
